A study of Saccharomyces cerevisiae with 95 samples.

Results

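The members are 3310 pairs of a TFIIB site and a TFIIE site whose midpoints lay within 150 bp of each other, each site paired only with its nearest partner. They were taken from 4033 TFIIB sites and 4473 TFIIE sites in budding yeast, after mitochondrial sites and sites in the ribosomal DNA cluster on chromosome XII were set aside. 8 of the series' 95 libraries were compared. The pairs held 82.4% of the usable TFIIB sites and 75.1% of the usable TFIIE sites. Their midpoints lay a median of 18.5 bp apart, and 2843 pairs were within 50 bp. The question was which promoters were relatively rich in TFIIB and which in TFIIE.

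Both groups came from a competition chromatin immunoprecipitation experiment, in which diploid W303 cells carried 2 tagged copies of a factor and grew in raffinose until galactose was added. In the TFIIB strain, a copy with 9 Myc tags stayed under the endogenous promoter, and a competitor with 3 HA tags was placed under the inducible GAL1 promoter. In the TFIIE strain the tags were on the Tfa1 subunit, and a copy of each TFIIE subunit was under GAL1. The libraries compared were the 4 TFIIB-Myc libraries and the 4 TFIIE-Myc libraries at 10, 20, 25 and 30 min after galactose, 1 library for each factor and time. Per the study's methods, the times of a strain were drawn from a single culture, with 1 library per tag and time. The times of a factor stood in for replicates but are repeat samples of 1 culture, so the p-values measure only the scatter between these libraries, which includes any change with time and leaves out the variation between cultures. Factor, strain, culture and immunoprecipitation cannot be told apart in this design.

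TFIIB, the product of SUA7 in yeast, binds the TBP-DNA complex on both sides of the TATA region and brings in RNA polymerase II with TFIIF. TFIIE joins later in the classical order of assembly, contacts the polymerase clamp, and recruits and stimulates TFIIH, whose translocase opens the promoter DNA. Both factors are parts of the preinitiation complex at polymerase II promoters. The level used below is the counts per bp of a site, divided by the sum of counts per bp over the 3310 pairs in that library and multiplied by 1000000. A pair with an average share would stand at 302. The level is relative, so a site called TFIIB-rich or TFIIE-rich (adjusted p under 0.05 in edgeR's quasi-likelihood test) is so only in comparison with the other pairs.

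5 windows of 300 bases, centred on the TFIIB midpoint and taken from the R64 reference (sacCer3), show the kinds of sites at the ends of the ratio. The first 3 were rich in TFIIB and the last 2 in TFIIE. ACS1 and HSP26 are a carbon-source and a heat shock promoter, MF(ALPHA)1 had the highest ratio of any gene start, FIT2 is an iron-regulated promoter and GAT1 had the lowest ratio at a gene start more than 20 kb from a chromosome end. Capitals mark TATA words on either strand in ACS1, HSP26, MF(ALPHA)1 and GAT1, and the iron words in FIT2.
ACS1, chrI:44984-45283, minus strand: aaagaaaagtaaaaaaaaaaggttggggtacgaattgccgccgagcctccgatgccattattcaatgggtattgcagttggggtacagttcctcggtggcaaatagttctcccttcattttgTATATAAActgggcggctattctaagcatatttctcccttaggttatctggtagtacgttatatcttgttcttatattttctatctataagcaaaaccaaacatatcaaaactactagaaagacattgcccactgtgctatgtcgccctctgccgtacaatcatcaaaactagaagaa
HSP26, chrII:381753-382052, plus strand: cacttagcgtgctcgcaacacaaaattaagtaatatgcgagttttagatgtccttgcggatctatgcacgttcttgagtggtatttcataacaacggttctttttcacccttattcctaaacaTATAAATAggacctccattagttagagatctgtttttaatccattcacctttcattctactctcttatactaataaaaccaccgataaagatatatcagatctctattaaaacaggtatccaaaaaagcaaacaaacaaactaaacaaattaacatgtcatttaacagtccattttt
MF(ALPHA)1, chrXVI:193425-193724, plus strand: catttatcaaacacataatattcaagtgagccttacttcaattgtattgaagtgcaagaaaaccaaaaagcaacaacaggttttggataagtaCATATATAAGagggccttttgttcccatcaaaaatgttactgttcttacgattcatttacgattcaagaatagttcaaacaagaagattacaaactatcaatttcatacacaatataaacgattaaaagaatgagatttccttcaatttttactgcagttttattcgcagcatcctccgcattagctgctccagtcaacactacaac
FIT2, chrXV:1059186-1059485, plus strand: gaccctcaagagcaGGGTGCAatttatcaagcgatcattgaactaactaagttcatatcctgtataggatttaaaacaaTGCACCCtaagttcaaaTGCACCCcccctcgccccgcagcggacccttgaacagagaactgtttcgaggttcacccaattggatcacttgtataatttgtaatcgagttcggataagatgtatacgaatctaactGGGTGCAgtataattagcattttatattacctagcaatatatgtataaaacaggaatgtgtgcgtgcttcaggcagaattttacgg
GAT1, chrVI:95843-96142, plus strand: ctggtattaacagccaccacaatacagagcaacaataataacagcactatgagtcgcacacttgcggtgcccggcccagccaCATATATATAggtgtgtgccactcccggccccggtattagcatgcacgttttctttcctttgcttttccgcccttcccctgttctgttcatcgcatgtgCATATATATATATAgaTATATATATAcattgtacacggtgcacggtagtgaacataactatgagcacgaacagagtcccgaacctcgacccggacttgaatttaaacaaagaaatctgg

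The TATA words were TATAAAAA, TATAAAAG, TATAAATA, TATAAATG, TATATAAA, TATATAAG, TATATATA and TATATATG, searched on both strands of the same 300-base window at every pair, overlaps included. They occurred at 34% of the 3310 pairs. Of the 34 pairs that were TFIIB-rich by at least a doubling, 23 held such a word (67.6%), against 18 of the 87 TFIIE-rich ones (20.7%). Among all calls, with or without a doubling, the shares were 40.9% of TFIIB-rich and 31.2% of TFIIE-rich pairs. The median GC content of the paired intervals was 33.9% in the 34 and 43.5% in the 87, and the part of base composition in the TATA counts was not tested. Over all pairs the median log2 TFIIB/TFIIE was -0.04 with a TATA word and -0.09 without one. The iron words, forms of the core bound by the iron regulator Aft1, began with TG, TA, CG or CA and ended in CACCC, and were found on either strand at 4.74% of pairs. They occurred at 3 of the 34 (8.82%) and at 10 of the 87 (11.5%). Among all calls they occurred at 1.66% of TFIIB-rich and 6.59% of TFIIE-rich pairs. FIT2 held 4 of these words and no TATA word. The stress element AGGGG, read by the activators Msn2 and Msn4, occurred at 22.4% of all pairs, at 13 of the 34 (38.2%) and at 26 of the 87 (29.9%). Among all calls the order was the other way, with 18.6% of TFIIB-rich and 25.4% of TFIIE-rich pairs. All matches are descriptions of letters and not of binding.

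The 8 libraries held 13810127 to 18570928 counts over all sites of their factor, of which 67.5% to 74.5% fell in the pairs, and the lowest count at any pair was 203. TFIIB sites stood further apart within a library than TFIIE sites: the SD of log2 counts per bp across pairs was 0.72 to 0.87 in TFIIB libraries and 0.59 to 0.67 in TFIIE libraries. TFIIE intervals were wider than TFIIB intervals in 2991 pairs (90.4%), by a median of 1.24-fold, so levels were taken per bp. The ratio of levels per bp still ran with width. Across pairs, log2 TFIIB/TFIIE had a Spearman rho of -0.42 with the log2 ratio of TFIIB to TFIIE width. With an offset on GC content, described below, that rho was -0.33. With counts per site, meaning no division by width, it was 0.25. The annotated start is the first base of the gene in the reference annotation and not a mapped transcription start. Midpoints lay at medians of 110 bp (TFIIB) and 116.5 bp (TFIIE) upstream of the annotated start in the 2580 pairs assigned to a gene. A further 71 pairs lay over tRNA genes and 659 had no start in the window.

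TFIIB and TFIIE levels ran together across pairs, with a Spearman rho of 0.68 between the means of the 4 times. Within a factor, library profiles correlated at 0.82 to 0.89 for TFIIB and 0.92 to 0.98 for TFIIE, against 0.56 to 0.77 between a TFIIB and a TFIIE library. These are descriptions over 3310 sites that share libraries. At 3189 pairs (96.3%) the fitted ratio was less than a doubling either way. The test called 602 pairs TFIIB-rich (18.2% of the 3310) and 926 TFIIE-rich (28% of the 3310). With at least a doubling, 34 pairs were TFIIB-rich (1.03%) and 87 were TFIIE-rich (2.63%). All 4 TFIIB libraries lay above all 4 TFIIE libraries at 566 pairs (17.1%) and all 4 TFIIE libraries above all 4 TFIIB libraries at 933 (28.2%). The split depended on the scaling, since with TMM 813 were TFIIB-rich and 739 TFIIE-rich, which is 52.4% of calls for TFIIB against 39.4% above. The calls also depended on the division by width. With counts per site 556 pairs were TFIIB-rich and 732 TFIIE-rich. Of the 602 and 926 calls per bp, 345 and 520 remained calls in the same direction.

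**Figure D1:**
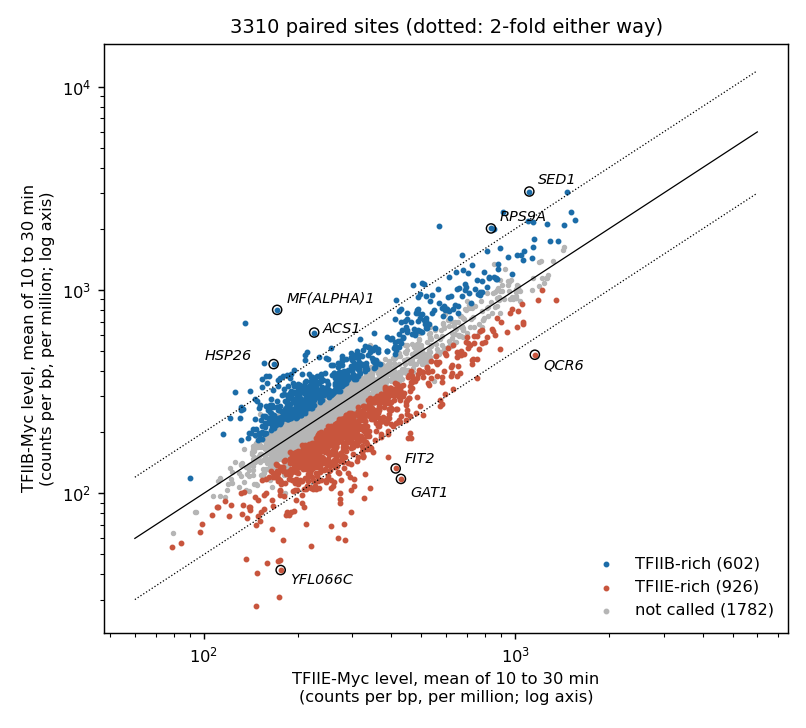
Mean level of each of the 3310 pairs in TFIIB-Myc libraries (vertical, log axis) against TFIIE-Myc libraries (horizontal, log axis), in counts per bp, scaled to a sum of 1000000. The 602 TFIIB-rich and 926 TFIIE-rich pairs lie on either side of the solid line of equal level, mostly inside the dotted lines of a doubling, and circled sites are named in the text.

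Base composition moved with the ratio. Across pairs, log2 TFIIB/TFIIE fell with the GC content of the paired intervals (Spearman rho -0.64). In the 662 pairs lowest in GC (up to 34.2%), 312 were TFIIB-rich and 24 TFIIE-rich, with a median log2 of 0.28. In the 662 highest in GC (from 39.7%), 21 were TFIIB-rich and 452 TFIIE-rich, with a median of -0.52. Levels fell with GC in each TFIIB library (rho -0.33 to -0.18) and rose with GC in each TFIIE library (0.15 to 0.27). The part of base composition in the calls, and whether it belongs to the promoters or to the libraries, was not tested. An offset that removes the trend with GC, chosen after the trend was seen, left 476 TFIIB-rich (14.4%) and 335 TFIIE-rich pairs (10.1%), of which 29 (0.876%) and 24 (0.725%) had at least a doubling. Of the 602 and 926 calls above, 306 (50.8%) and 257 (27.8%) remained calls in the same direction.

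**Figure D2:**
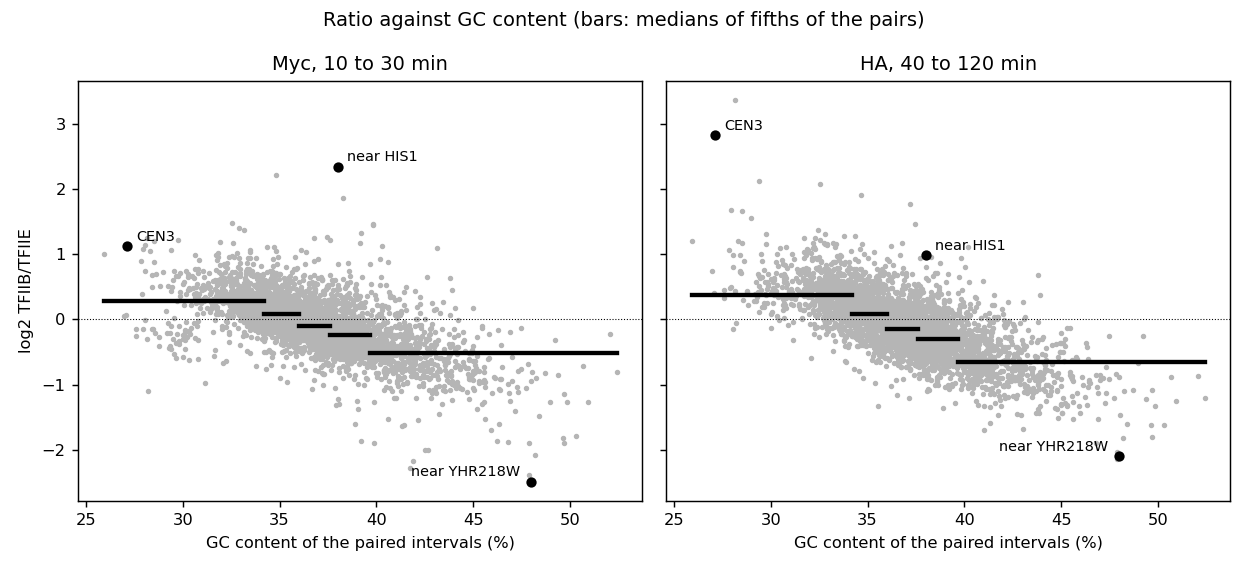
Log2 TFIIB/TFIIE of each pair (vertical) against the GC content of its intervals in percent (horizontal), in Myc libraries at 10 to 30 min (left) and HA libraries at 40 to 120 min (right). Black bars are medians over 662 pairs each, in order of GC, and were -0.52 and -0.66 at the highest GC, against 0.28 and 0.37 at the lowest.

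At gene starts, MF(ALPHA)1 had the largest ratio. It encodes the alpha-factor mating pheromone, made by alpha cells and repressed in a/alpha diploids. In time order its level was 566, 723, 832 and 1075 in TFIIB libraries, against 146.95, 169, 166 and 206 in TFIIE libraries. Every TFIIB library was above every TFIIE library, as was required of gene starts picked for the largest or smallest ratios. Log2 TFIIB/TFIIE was 2.22 ± 0.18 (SE, adjusted p = 3.79e-06, 2.11 with the GC offset). The difference was not seen with the other tag: at 40 to 120 min the level ran from 63.1 to 107 in TFIIB-HA libraries and from 76.7 to 102 in TFIIE-HA libraries, with log2 TFIIB/TFIIE near 0 (adjusted p = 0.99). Early HA libraries gave -0.04 (adjusted p = 0.963), and late Myc libraries gave 1.47 (adjusted p = 2.61e-05). The TFIIB interval here was 411 bp and the TFIIE interval 178 bp. HMRA1, at the silent mating-type cassette on chromosome III, was also TFIIB-rich (log2 1.17 ± 0.09, adjusted p = 3.32e-06), but it has a near-identical copy elsewhere and reads cannot be assigned with certainty; its value turned to -0.32 when counts were taken per site. MF(ALPHA)1 and HMRA1 were the only members of a list of 15 mating-type genes, drawn up after their values were seen, that had a pair.

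Several genes of alternative carbon use were TFIIB-rich. ACS1, an acetyl-coenzyme A synthetase for growth on non-fermentable carbon, stood at 1034, 602, 429.7 and 406 in TFIIB libraries, against 181, 185, 233 and 305 in TFIIE libraries (log2 1.45 ± 0.27, SE, adjusted p = 0.00126, 1.80 with the GC offset). TFIIB was highest at 10 min and TFIIE at 30 min, so the groups came closest at the last time. They did not overlap, as the choice of ACS1 among the largest ratios required. FOX2, the multifunctional enzyme of peroxisomal beta-oxidation, stood at 414, 326, 271 and 245 in TFIIB libraries, against 103, 121, 123 and 156 in TFIIE libraries (log2 1.32 ± 0.17, adjusted p = 0.000121). STL1, a glycerol symporter, had log2 1.03 ± 0.25 (adjusted p = 0.0055), and YAT2, a carnitine acetyltransferase, 0.96 ± 0.30 (adjusted p = 0.0191, 0.0512 with the GC offset). The call at YAT2 was lost without the 25 min (0.85) or the 30 min (0.93) TFIIE library. CAT8, the activator of gluconeogenic genes, was called by a narrow margin (0.46 ± 0.18, adjusted p = 0.0487) that did not survive leaving out any of 5 libraries, namely TFIIB at 10 min (0.33) or 25 min (0.38) and TFIIE at 20 min (0.46), 25 min (0.42) or 30 min (0.40). Of the 11 paired members of this list, 5 were TFIIB-rich (45.5%, beside 18.2% of all pairs), none was TFIIE-rich (beside 28%) and 6 were not called. Their median log2 was 0.15, beside -0.07 over all pairs. Relative to all pairs it stood at 0.22, but at -0.07 without the 10 min TFIIB library and at -0.01 after background subtraction.

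Among lists with at least 5 pairs, the carbon list moved most with the GC offset. Its median was then 0.86, beside 0.00 over all pairs, with 6 TFIIB-rich (54.5%, beside 14.4% of all pairs) and 0 TFIIE-rich pairs (beside 10.1%). GUT2, the mitochondrial glycerol-3-phosphate dehydrogenase, is the clearest case. Its level was 638, 588, 449 and 542 in TFIIB libraries, against 661, 614, 659 and 646 in TFIIE libraries, and log2 TFIIB/TFIIE was -0.22 ± 0.10 (adjusted p = 0.104). Its intervals had 52.1% GC, and with the GC offset the value was 1.16 (adjusted p = 1.93e-05). The pair nearest ADH2, the alcohol dehydrogenase repressed by glucose, lay 251.5 bp from that start, just outside the gene window, and was picked after its values were seen. It stood at 2655, 1954, 1888 and 1739 in TFIIB libraries, against 424, 531, 626 and 691 in TFIIE libraries (log2 1.86 ± 0.17, adjusted p = 1.22e-05, 2.08 with the GC offset).

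Heat shock and chaperone genes had the highest median of the lists with at least 5 pairs, 0.36, beside -0.07 over all pairs. Of 19 pairs, 7 were TFIIB-rich (36.8%, beside 18.2% of all pairs), 1 was TFIIE-rich (5.26%, beside 28%) and 11 were not called. With the GC offset the median was 0.44, with 9 TFIIB-rich (47.4%, beside 14.4% of all pairs) and 0 TFIIE-rich (beside 10.1%). HSP26, a small heat shock protein that binds unfolded proteins, stood at 590.2, 350.3, 346 and 442 in TFIIB libraries, against 220.3, 164, 120.3 and 165 in TFIIE libraries (log2 1.37 ± 0.20, SE, adjusted p = 0.000271). All TFIIB values were above all TFIIE values, as its choice among the largest ratios required, and both factors were highest at 10 min. HSP12, a small membrane-associated stress protein, stood at 648, 261, 281 and 323 in TFIIB libraries, against 196, 146, 134 and 159 in TFIIE libraries (log2 1.254 ± 0.25, adjusted p = 0.00197). The others called TFIIB-rich were HSC82, a constitutive Hsp90 (log2 0.64), SSA2, a cytosolic Hsp70 (0.63), CUR1, a sorting factor for misfolded proteins (0.62), the disaggregase HSP104 (0.53) and the Hsp110 protein SSE2 (0.50). The groups overlapped at HSC82 and SSA2, and SSA2 and SSE2 were no longer called with the GC offset. The call at SSA2 was also lost without TFIIB at 25 min (0.54) or 30 min (0.47), or TFIIE at 10 min (0.51) or 20 min (0.60). HSP42, another small heat shock protein, was the TFIIE-rich member (-0.51 ± 0.15, adjusted p = 0.0173). Its groups overlapped, its call was lost without TFIIE at 10 min (-0.47) or 30 min (-0.40), and it had 0.28 with the GC offset.

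**Figure D3:**
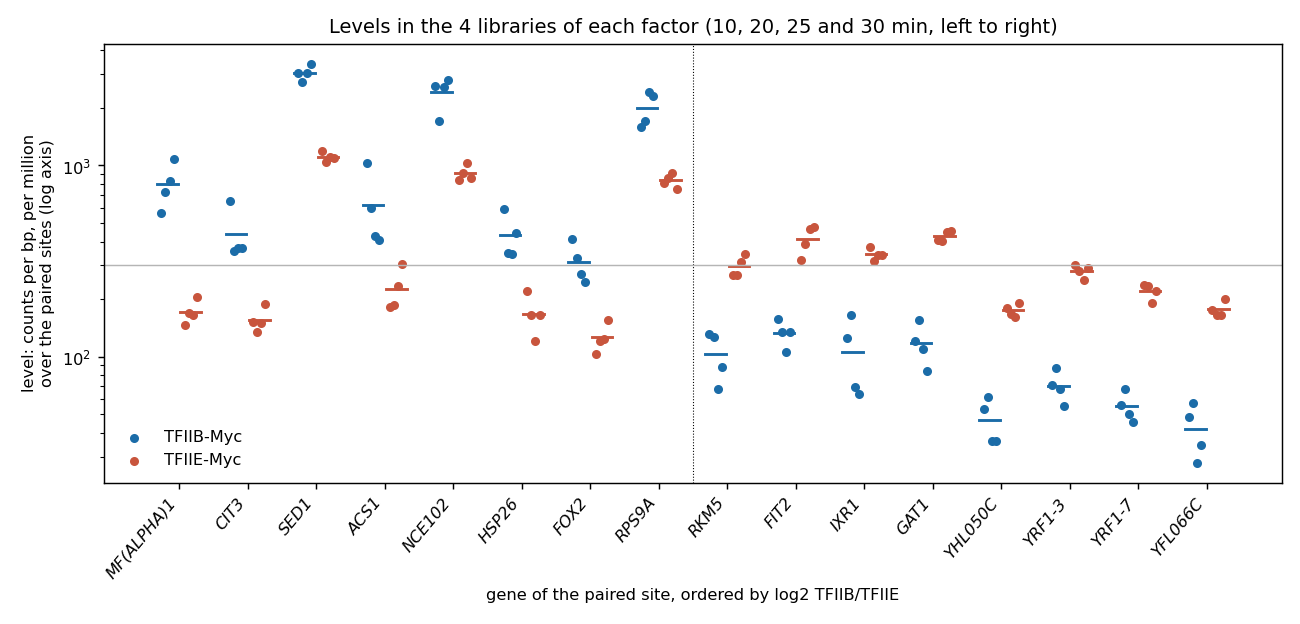
Levels (counts per bp, scaled to a sum of 1000000, log axis) of the 8 named gene starts with the largest and the 8 with the smallest log2 TFIIB/TFIIE, left and right of the dotted line. Points are the libraries at 10, 20, 25 and 30 min, bars are means, and the grey line is the average share of 302. TFIIB and TFIIE libraries do not overlap at any of the 16, because only pairs without overlap could be chosen.

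Cell wall protein genes were split. Of 16 pairs, 8 were TFIIB-rich (50%, beside 18.2% of all pairs) and 4 TFIIE-rich (25%, beside 28%), with a median log2 of 0.25. With the GC offset the median was 0.38, with 8 TFIIB-rich (50%, beside 14.4% of all pairs) and 2 TFIIE-rich (12.5%, beside 10.1%). SED1, an abundant wall glycoprotein anchored by glycosylphosphatidylinositol, is the highest of the list in ratio. It stood at 3041, 2724, 3051 and 3399.8 in TFIIB libraries, against 1196, 1046, 1111 and 1089 in TFIIE libraries (log2 1.46 ± 0.10, SE, adjusted p = 1.64e-06), with little scatter between the times. The wall mannoproteins TIP1 (1.13 ± 0.12) and CWP1 (0.90 ± 0.11), YGP1 (0.69 ± 0.10) and ZEO1 (0.67 ± 0.12) were TFIIB-rich as well. NCE102, a plasma membrane protein of eisosomes outside this list, stood at 2616, 1718, 2579 and 2801 in TFIIB libraries, against 841, 917, 1034 and 863 in TFIIE libraries (log2 1.41 ± 0.15, adjusted p = 3.09e-05). The wall list held its opposite extreme in FIT2, described with the iron genes.

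Ribosomal protein promoters were high in both factors, with median levels of 716 for TFIIB and 675 for TFIIE over 86 pairs. In the large subunit 14 of 50 were TFIIB-rich (28%) and 5 TFIIE-rich (10%), with a median of 0.10. In the small subunit 9 of 36 were TFIIB-rich (25%) and 6 TFIIE-rich (16.7%), with a median of 0.06. Of all pairs 18.2% were TFIIB-rich and 28% TFIIE-rich. With the GC offset the large subunit had 22 TFIIB-rich (44%) and 3 TFIIE-rich (6%). The small subunit then had 12 TFIIB-rich (33.3%) and 2 TFIIE-rich (5.56%), beside 14.4% and 10.1% of all pairs. Relative to all pairs, the median of both subunits together was 0.14 higher, but it was lower with the loess offset on level (-0.06), with counts per site (-0.18), with similar widths only (-0.10) and after background subtraction (-0.12), so the group has no settled direction. RPS9A, for a protein of the small subunit, stood at 1591, 1699.9, 2434 and 2316 in TFIIB libraries, against 811, 861, 919 and 754 in TFIIE libraries (log2 1.27 ± 0.14, adjusted p = 6.4e-05). Its TFIIE interval of 1346 bp was far wider than its TFIIB interval of 533 bp, and with counts per site it had 0.31 and was not called. RPL18B was the highest large-subunit gene (1.11 ± 0.15), while RPL2A (-0.62 ± 0.11) and RPS24B (-0.64 ± 0.12) were the lowest of the 2 lists and were called TFIIE-rich; with the GC offset RPL2A had -0.01 and RPS24B -0.10.

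Of the 23 pairs at respiratory chain and ATP synthase genes 1, ATP2, was TFIIB-rich (4.35%, beside 18.2% of all pairs) and 11 were TFIIE-rich (47.8%, beside 28% of all pairs), with a median log2 of -0.25. With the GC offset there were 6 TFIIB-rich (26.1%, beside 14.4% of all pairs) and 3 TFIIE-rich (13.0%, beside 10.1%), and the median was 0.03. QCR6, a subunit of complex III, stood at 538, 656, 369.5 and 359 in TFIIB libraries, against 1284, 1059, 1163 and 1122 in TFIIE libraries (log2 -1.27 ± 0.17, SE, adjusted p = 0.000169). Its intervals held 50.9% GC and its value with the GC offset was 0.02 (adjusted p = 0.965). ATP2, the beta subunit of ATP synthase, stood at 1635, 1606, 1609 and 1640.4 in TFIIB libraries, against 1235, 1148, 1140.2 and 1050.2 in TFIIE libraries (log2 0.51 ± 0.08, adjusted p = 0.000592). It was not called with counts per site (0.04) or with the loess offset on level (0.19). Mitochondrial ribosomal protein genes had 9 TFIIB-rich (17%) and 20 TFIIE-rich (37.7%) of 53 pairs (median -0.18), and 7 TFIIB-rich and 2 TFIIE-rich with the GC offset (median -0.02). With counts per site their median was 0.01 above that of all pairs. Their extremes were MRPL3 (0.66 ± 0.08, 0.72 with the GC offset) and RSM19 (-1.13 ± 0.15), the RSM19 pair being shared with the divergent DBP6. RSM19 had -0.25 with the GC offset and was then not called (adjusted p = 0.222).

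The remaining lists are set beside the background of 18.2% TFIIB-rich and 28% TFIIE-rich. There were 11 TFIIB-rich and 6 TFIIE-rich of 47 ribosome biogenesis genes, 8 TFIIB-rich and 7 TFIIE-rich of 23 translation factor genes, 6 TFIIB-rich and 11 TFIIE-rich of 33 amino acid biosynthesis genes, 3 TFIIB-rich and 5 TFIIE-rich of 24 proteasome genes and 3 TFIIB-rich and 3 TFIIE-rich of 20 stress, glycogen and trehalose genes. With the GC offset, where 14.4% and 10.1% of all pairs were called, the ribosome biogenesis genes had 0 TFIIB-rich and 2 TFIIE-rich, translation factors 6 and 2, amino acid genes 4 and 6, proteasome genes 4 and 0, and stress genes 4 and 0. The balance of calls turned to the other factor in ribosome biogenesis and proteasome genes. Small nuclear and nucleolar RNA genes had 11 TFIIB-rich and 8 TFIIE-rich of 30, spread from SNR85 (-0.66 ± 0.10) to SNR36 (0.70 ± 0.13), and 9 and 3 with the GC offset. Their median stood above that of all pairs by 0.23, but not with counts per site (-0.01), similar widths only (-0.26) or background subtraction (-0.02). The medians of the ribosome biogenesis, translation factor, proteasome, stress, amino acid, glycolytic and tricarboxylic acid cycle lists also changed side under at least 1 alternative. Glycolytic genes had 2 TFIIB-rich and 2 TFIIE-rich of 9, among them FBA1, fructose-bisphosphate aldolase (0.93 ± 0.15, but 0.27 and not called with counts per site), and ENO1, an enolase (-0.57 ± 0.09, 0.06 with the GC offset). The glycolytic counts were 2 TFIIB-rich and 0 TFIIE-rich with the GC offset. Tricarboxylic acid cycle genes had 1 TFIIB-rich and 4 TFIIE-rich of 9, from PYC1, pyruvate carboxylase (-1.05 ± 0.12), to CIT3, a mitochondrial citrate synthase at a centromere that is described below, and with the GC offset 4 were TFIIB-rich and 0 TFIIE-rich. Of the 3 paired hexose transporter and sensor genes, HXT7 was TFIIB-rich (0.51 ± 0.13), RGT2 was TFIIE-rich (-0.41 ± 0.14), though not without any 1 of the 4 TFIIE libraries (-0.43 to -0.39), and HXT2 was not called. Extremes of the other lists were MET6 (0.69 ± 0.16) and THR1 (-0.92 ± 0.11) for amino acids, TIF6 (0.53 ± 0.12) and GCD11 (-0.88 ± 0.14) for translation factors, RPA190 (0.66 ± 0.20) and BUD23 (-1.06 ± 0.16) for ribosome biogenesis, RPT1 (0.34 ± 0.08) and RPN6 (-0.84 ± 0.13) for the proteasome, and TMA10 (0.89 ± 0.13) and TSA1 (-0.95 ± 0.17) for stress genes. With the GC offset RPA190, BUD23, RPN6, TSA1, PYC1 (-0.31, adjusted p = 0.0863), SNR85 (-0.18, adjusted p = 0.19) and RGT2 (-0.28, adjusted p = 0.151) were no longer called, and RPA190 was not called without the 25 min TFIIB library either (0.52).

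**Figure D4:**
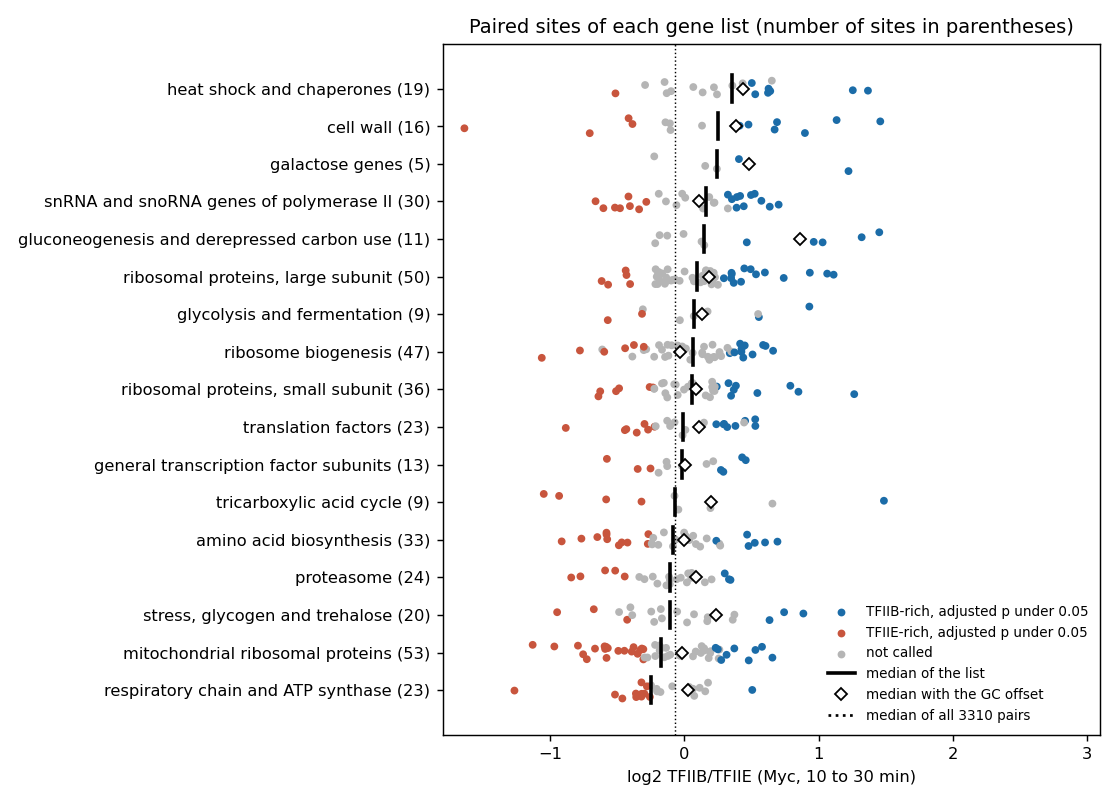
Log2 TFIIB/TFIIE (horizontal) of every paired site of each gene list with at least 5 pairs (rows), coloured by call. The thick bar is the list's median, from -0.25 for respiratory genes to 0.36 for heat shock genes, the diamond is the median with the GC offset, and the dotted line is the median of all pairs, -0.07.

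Subunit genes of the general transcription machinery were called in both directions. Of 13 general transcription factor genes, 4 were TFIIB-rich (30.8%, beside 18.2% of all pairs) and 3 TFIIE-rich (23.1%, beside 28%), with a median of -0.02. The GC offset left 1 each way (7.69%, beside 14.4% TFIIB-rich and 10.1% TFIIE-rich of all pairs). KIN28, the kinase of TFIIH, was highest (0.46 ± 0.09, adjusted p = 0.00214) and SSL1, another TFIIH subunit, lowest (-0.58 ± 0.15, adjusted p = 0.00788). Neither was called with the GC offset, where KIN28 had 0.18 (adjusted p = 0.192) and SSL1 -0.03 (adjusted p = 0.918), and SSL1 was not called with counts per site either (-0.38). The TFIIA genes TOA1 (-0.25 ± 0.08, adjusted p = 0.023, shared with SLK19) and TOA2 (-0.02 ± 0.09, adjusted p = 0.878) stood near equality, and TOA1 was not called without TFIIE at 10 min (-0.23) or 30 min (-0.24). GAL7, the galactose-1-phosphate uridylyltransferase induced by galactose, stood at 772, 1848, 2274 and 3085 in TFIIB libraries, against 411, 821, 1018 and 1169.8 in TFIIE libraries. Both factors were higher at 30 min than at 10 min, the groups overlapped, and log2 TFIIB/TFIIE was 1.22 ± 0.37 (SE, adjusted p = 0.0188). The call was lost without TFIIB at 25 min (1.15) or 30 min (0.93). GAL7 was not called with counts per site either (0.90, adjusted p = 0.0702). Its intervals were 1258 bp for TFIIB and 2043 bp for TFIIE. The other 4 paired genes of the galactose list gave 1 call, MTH1, a regulator of hexose transporter genes (0.41 ± 0.11, adjusted p = 0.0099). URA3 was not called (-0.37 ± 0.15, adjusted p = 0.0619), and no pair was assigned to SUA7, TFA1, TFA2, SPT15, TFG1, TFG2, GAL1, GAL10 or GAL2.

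The TFIIE-rich end at gene starts held several genes of iron uptake, which the regulator Aft1 switches on when iron is scarce. A list of 25 such genes was drawn up after their values were seen and is given as a description. Of its 13 pairs, none was TFIIB-rich (beside 18.2% of all pairs), 6 were TFIIE-rich (46.2%, beside 28%) and 7 were not called. Their log2 ran from -1.64 to 0.15, with a median of -0.28. FIT2, a wall mannoprotein that retains siderophore iron, stood at 157, 134, 106 and 134 in TFIIB libraries, against 321, 387, 466 and 479 in TFIIE libraries (log2 -1.64 ± 0.15, SE, adjusted p = 1.02e-05). Every TFIIE library was above every TFIIB library, as its choice among the smallest ratios required. The pair between RKM5 and TIS11, where TIS11 is an mRNA-binding protein of the iron starvation response, stood at 132, 126, 67.3 and 88.2 in TFIIB libraries, against 267, 267, 314 and 343 in TFIIE libraries (log2 -1.52 ± 0.19, adjusted p = 0.000103).

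CCC2, the copper pump that supplies the iron oxidase, had log2 -1.10 ± 0.09, FTR1, the high-affinity iron permease, -1.09 ± 0.15, FET3, the oxidase itself, -1.07 ± 0.12, and SIT1, a siderophore transporter, -0.96 ± 0.10. With the GC offset FIT2 (-1.16), CCC2 (-0.66) and RKM5 with TIS11 (-0.67) were still called, while FTR1 (-0.18, adjusted p = 0.427), FET3 (-0.16, adjusted p = 0.338) and SIT1 (-0.27, adjusted p = 0.0685) were not, and ISU1 became TFIIB-rich (0.56). The intervals of FTR1 and FET3 held 46.4% and 46.3% GC. The list counted 1 TFIIB-rich (7.69%, beside 14.4% of all pairs) and 3 TFIIE-rich pairs (23.1%, beside 10.1%) with that offset. FIT2 had values of -1.32 and -1.33 in early and late HA libraries, and -1.55 in late Myc libraries, all without the GC offset. With that offset its late HA value was -0.73 and was not a call (adjusted p = 0.0588). The list's median in late HA libraries was -0.42 without the GC offset and 0.04 with it.

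GAT1, a GATA-type activator of genes for poor nitrogen sources, stood at 121, 156, 109 and 84.3 in TFIIB libraries, against 409, 403, 451 and 456 in TFIIE libraries (log2 -1.87 ± 0.15, SE, adjusted p = 5.29e-06, -0.97 with the GC offset). IXR1, a DNA-binding protein with HMG boxes, stood at 125, 166, 69 and 63.5 in TFIIB libraries, against 376, 315, 341 and 339 in TFIIE libraries (log2 -1.69 ± 0.26, adjusted p = 0.000356, -0.82 with the GC offset). At both promoters TFIIE varied little between the times and TFIIB was below the average share of 302 in each library. Of all 537 pairs with starts on both strands, 47 were TFIIB-rich (8.75%, beside 18.2% of all pairs) and 199 TFIIE-rich (37.1%, beside 28%), with a median of -0.18. With the GC offset 40 were TFIIB-rich (7.45%, beside 14.4% of all pairs) and 31 TFIIE-rich (5.77%, beside 10.1%), with a median of -0.05.

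The lowest ratios of levels per bp lay in subtelomeric repeats, but this order did not hold with counts per site. Of the 87 pairs that were TFIIE-rich by at least a doubling, 23 lay within 20 kb of a chromosome end, where 95 of the 3310 pairs lay, and none of the 34 TFIIB-rich ones did. The lowest pair, chrVIII:558660-559447, 3590 bp from the end of its chromosome, stood at 36.3, 42.2, 24.9 and 20.4 in TFIIB libraries, against 176, 161, 160.5 and 198 in TFIIE libraries (log2 -2.49 ± 0.21, SE, adjusted p = 6.94e-06). YRF1-7, one of the helicase genes of the Y′ elements, stood at 55.7, 68, 50.4 and 45.7 in TFIIB libraries, against 238, 234, 191 and 220.4 in TFIIE libraries (log2 -2.01 ± 0.15), and YRF1-3 averaged 70.4 ± 13.2 in TFIIB libraries and 282 ± 22 in TFIIE libraries (SD over the 4 times of 1 culture each). The Y′ reading frames YFL066C and YHL050C had -2.07 ± 0.20 and -1.90 ± 0.18. With counts per site the lowest pair had -1.19, YRF1-7 -0.43, YRF1-3 -0.63, YHL050C -0.93 and YFL066C -0.51, which was not a call (adjusted p = 0.0618), whereas GAT1 had -2.05, FIT2 -1.89 and RKM5 -1.72. All 5 repeat sites stayed calls with the GC offset, at -1.44, -1.42, -1.40, -0.72 and -1.01 in the same order. The groups did not overlap at any of these sites, which was required of the named genes among them. These sequences exist in many near-identical copies, so their reads cannot be assigned to 1 place and each value is uncertain. Of the 95 pairs near an end 11 were TFIIB-rich (11.6%, beside 18.2% of all pairs) and 44 TFIIE-rich (46.3%, beside 28%). With the GC offset 11 were TFIIB-rich (11.6%, beside 14.4% of all pairs) and 32 TFIIE-rich (33.7%, beside 10.1%). Of the 23 pairs 20 had a wider TFIIB than TFIIE interval, against 310 of all 3310.

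Of 102 pairs over Ty elements or their long terminal repeats, tRNA genes apart, 9 were TFIIB-rich (8.82%, beside 18.2% of all pairs) and 42 TFIIE-rich (41.2%, beside 28%). Their median log2 was -0.26. Here too reads are shared between copies, and the direction of the median was not stable: it was -0.62 with the GC offset and 0.18 with the loess offset on level. Of 117 pairs inside a coding gene with no start in the window, 13 were TFIIB-rich (11.1%, beside 18.2% of all pairs) and 60 TFIIE-rich (51.3%, beside 28%), and with the GC offset 13 and 32. The TFIIB interval was the wider one in 46 of the 117.

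Sites over tRNA genes, which RNA polymerase III transcribes with other initiation factors, were more often TFIIB-rich. Of 71 pairs, 35 were TFIIB-rich (49.3%, beside 18.2% of all pairs) and 6 TFIIE-rich (8.45%, beside 28%), with a median log2 of 0.23. With the GC offset the median was 0.38. There 37 were TFIIB-rich (52.1%, beside 14.4% of all pairs) and 2 TFIIE-rich (2.82%, beside 10.1%). Their median levels were below the average share, at values of 248 for TFIIB and 218 for TFIIE. The extremes, chosen after their values were seen, were the tRNA genes YNCI0006W (1.09 ± 0.17) and YNCF0012C (-0.59 ± 0.15, but -0.31 with the GC offset and 0.37 with counts per site, neither a call). In late Myc libraries the median of the 71 was -0.37, beside -0.27 over all pairs, and in early and late HA libraries 0.43 and 0.23.

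All 4 pairs over a centromere were TFIIB-rich (beside 18.2% of all pairs), a set singled out after its values were seen. Centromeres are the short sites of the kinetochore and are not promoters. The pair over CEN3 stood at 329, 309, 318 and 377 in TFIIB libraries, against 152, 164, 158 and 140.4 in TFIIE libraries (log2 1.12 ± 0.10, SE, adjusted p = 1.02e-05). The groups did not overlap. The pair at RRP6 and CEN15 had 1.07 ± 0.13 and the pair at CIT3 and CEN16 1.49 ± 0.19. With the GC offset the values were 0.59, 0.75, 0.61 and 1.19 at CEN3, CEN4, CEN15 and CEN16, and all 4 stayed calls. At CIT3 the TFIIB level was 651, 357, 371 and 368, against a TFIIE level of 151, 135, 149 and 188, with the 10 min TFIIB library far above the other three. Late HA values were 2.83, 3.36, 2.12 and 2.07 at CEN3, CEN4, CEN15 and CEN16. At CEN3 the late HA level ran from 987 to 1551 in TFIIB-HA libraries and from 132 to 215 in TFIIE-HA libraries. In late Myc libraries the values were lower than in the early ones, at 0.49 for CEN3 (adjusted p = 0.0159), 0.72 for CEN15 (adjusted p = 0.002) and -0.11 for CIT3 at CEN16, which was not a call (adjusted p = 0.573). CEN4 had 0.22 there and was not a call either (adjusted p = 0.327). When counts were taken per site, CEN3 had -0.13 and CEN15 -0.10, since their TFIIE intervals were 627 and 715 bp and their TFIIB intervals 202 and 245 bp. CEN4 (0.89, adjusted p = 0.000188) and CEN16 (1.40, adjusted p = 0.000189) stayed calls with counts per site.

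The largest ratio of any pair, picked after its values were seen, was at chrV:264604-265116, with no annotated start closer than that of HIS1, 926 bp away. It stood at 872, 648, 585 and 652 in TFIIB libraries, against 184, 119, 113 and 127 in TFIIE libraries (log2 2.34 ± 0.17, adjusted p = 2.28e-06, 2.54 with the GC offset). TFIIB was above and TFIIE below the average share of 302 in every library.

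The same pairs were fitted in libraries outside the comparison, which came from the same strains but from the HA copies or from later times. In late HA libraries (40, 60, 90 and 120 min), 324 of the 602 TFIIB-rich pairs (53.8%) were called TFIIB-rich and 1 TFIIE-rich, beside 14.9% and 25.9% of all pairs. Of the 926 TFIIE-rich pairs, 610 (65.9%) were called TFIIE-rich there and 8 TFIIB-rich. In early HA libraries 126 pairs were TFIIB-rich (3.81%) and 308 TFIIE-rich (9.31%), and 97 and 256 of these were calls in the same direction as above, with none opposite. In late Myc libraries, where the SD of log2 counts per bp across pairs was 0.73 to 0.95 for TFIIB but only 0.29 to 0.48 for TFIIE, 492 pairs were TFIIB-rich (14.9%) and 1443 TFIIE-rich (43.6%). There the carry-over was 247 of 602, with 50 opposite, and 675 of 926, with 24 opposite. Across pairs the ratio had a Spearman rho of 0.77 with early HA, 0.77 with late HA and 0.59 with late Myc libraries. The ratio in late HA libraries had a rho of -0.72 with GC content, and with the GC offset in both fits the rho with late HA was 0.59.

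Single sites differed in how far they carried over. SED1 had 1.35 in early HA and 0.94 in late HA libraries, NCE102 1.08 and 1.14, and RPS9A 0.63 and 1.46. ACS1 had 1.61 and then 0.32, HSP26 1.85 and 0.68, and FOX2 1.07 and 0.29. In late Myc libraries ACS1 had -0.52, HSP26 -0.06 and FOX2 -1.002, where SED1 had 1.501 and RPS9A 2.01. There FOX2 was called TFIIE-rich (adjusted p = 0.00839), the opposite direction, and ACS1 and HSP26 were not called. ACS1, HSP26 and FOX2 were not called in late HA libraries, whereas SED1, NCE102 and RPS9A were called TFIIB-rich in the late libraries of both tags. The difference between early and late ratios was not tested.

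Within the early Myc libraries, a factor by log2(time) term asked whether the ratio changed from 10 to 30 min. edgeR called 5 falling pairs (0.151% of the 3310) and 0 rising ones (0%), where 150 falling and 137 rising pairs had an unadjusted p under 0.05. The 5 were ACS1, at -1.29 ± 0.17 per doubling of time (SE, adjusted p = 0.0167), ICL2, a mitochondrial lyase of propionate breakdown, at -0.98 ± 0.15 per doubling of time (SE, adjusted p = 0.0229), the pair near ADH2, at -0.82 ± 0.12 per doubling of time (SE, adjusted p = 0.0169), ALD4, mitochondrial aldehyde dehydrogenase, at -0.81 ± 0.14 per doubling of time (SE, adjusted p = 0.0454), and PUT4, the proline permease, at -0.71 ± 0.11 per doubling of time (SE, adjusted p = 0.0229). At ICL2 the level in time order was 690.4, 521, 354 and 412 in TFIIB libraries, against 250.03, 349.9, 355 and 412 in TFIIE libraries. At ALD4 it was 939, 744, 628 and 567 in TFIIB libraries, against 589, 630.4, 757 and 915 in TFIIE libraries, so that TFIIB was the higher at 10 and 20 min and TFIIE at 25 and 30 min. PUT4 stood at 993, 549, 452 and 389.6 in TFIIB libraries, against 730.3, 668, 676 and 602 in TFIIE libraries. The TFIIB level was lower at 30 min than at 10 min at all 5, and the TFIIE level was higher at 4 of the 5, PUT4 being the exception. The count rested on single libraries: without the 10 min TFIIB library 82 pairs fell and 20 rose, without the 20 min TFIIB library 12 fell and 4 rose, without the 25 min TFIIB library or without the 25 or 30 min TFIIE library 0 fell, and without the 10 min TFIIE library 1 fell.

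**Figure D5:**
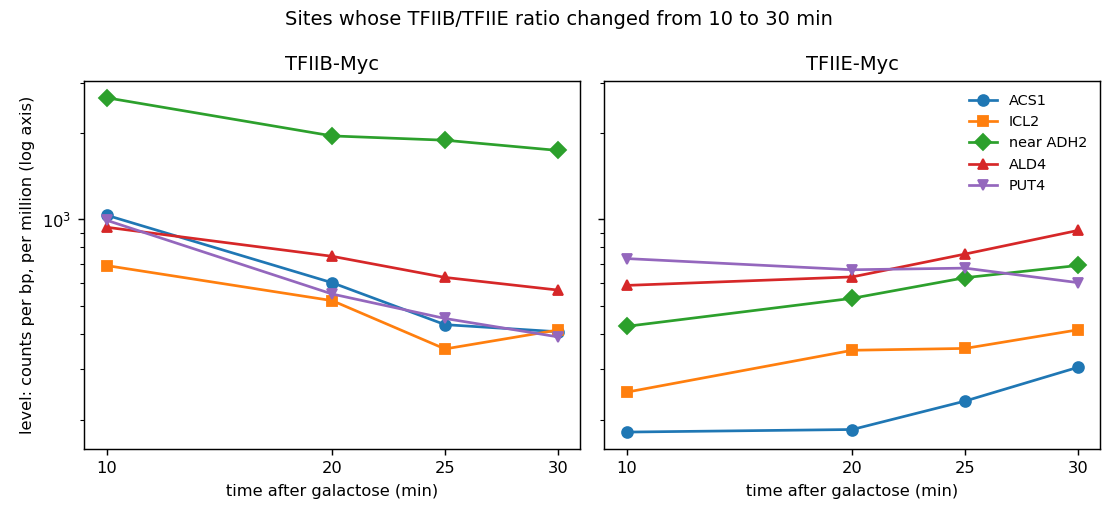
Level (counts per bp, scaled to a sum of 1000000, log axis) of the 5 sites whose ratio changed with time, in TFIIB-Myc libraries (left) and TFIIE-Myc libraries (right) against minutes after galactose, 1 library per point. TFIIB levels end below where they began at all 5 sites, and TFIIE levels end above at ACS1, ICL2, ALD4 and the site near ADH2.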

How the data were processed

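The ChIP-seq counts compared came from 2 deposited tables of Myc libraries, and the HA counts came from 2 further ones. Per the study's methods, the authors aligned reads to sacCer3 with Bowtie2 2.2.6, called peaks with MACS2 2.1.0.20151222 on several early Myc libraries of a factor, with a fixed read extension, merged them, and counted reads per site with bedtools, so the deposited values are raw counts that are neither normalized nor corrected for input. Sites therefore follow Myc signal, and TFIIB and TFIIE intervals differ in width.

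Pairs were fitted with edgeR 4.0.16 (quasi-likelihood, R 4.3.3) with an offset of log width plus log total counts per bp over pairs, with Benjamini-Hochberg adjustment over 3310 pairs and a threshold of 0.05. Pairs needed a mean of 10 counts per library. All passed. The fit was tested on simulated data. Genes were assigned by the TFIIB midpoint, from 250 bp upstream to 100 bp downstream of an annotated start. That start was the first base of the annotated gene and not a mapped transcription start.

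Named sites were the 8 largest and 8 smallest log2 values among called, non-overlapping pairs with at least 50 counts whose sign was kept under every alternative but the GC offset, the extremes of each gene list with at least 5 pairs, and TFIIB, TFIIE, TBP, TFIIA, TFIIF, galactose and URA3 genes. Members and lists were chosen with earlier results of these data known. Of 519 list symbols 2 were not matched. Alternatives used DESeq2 1.42.0 and limma 3.58.1, the pseudocount of the limma fit being 10. Depth and the lowest count of 203 leave little counting error, which is smaller than the scatter between times.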

Additional observations from a re-analysis of the deposited data

Results flagged for a closer look

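Of 100 sets of 4 libraries at the named sites, 3 held a library far from the other three, where chance gives about 1 in 20. CIT3 had a TFIIB level of 651 at 10 min and 357 to 371 at the other times. GAL3, a galactose-responsive regulator, had a TFIIB level of 383 at 10 min and 515 to 527 later. SNR85 had a TFIIB level of 338 at 20 min and 256 to 268 at the other times.

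Within the early Myc libraries, from 10 to 30 min, the ratio of TFIIB to TFIIE fell with time at 5 sites, by the factor by log2 time term of edgeR. The count of falling sites ran from 0 to 82 when a single library was left out. The terms were -1.29 for ACS1 (adjusted p = 0.0167), -0.98 for ICL2 (adjusted p = 0.0229), -0.82 for the site near ADH2 (adjusted p = 0.0169), -0.81 for ALD4 (adjusted p = 0.0454) and -0.71 for PUT4 (adjusted p = 0.0229), each per doubling of time.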

How the results depend on the processing

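The named sites with the largest and smallest log2 values were picked for a sign kept under every alternative but the offset on GC content. Their kept direction was thus required, though not their call under the alternatives. Of the 43 called sites among the 47 named, 34 kept direction and call under every alternative but the offset on GC content, and 28 under that offset, which was chosen after seeing the data. With it 10 were no longer called and 5 changed sign, ENO1 to 0.063, HSP42 to 0.28, QCR6 to 0.016, TSA1 to 0.10 and TOA1 to 0.034; GUT2, not called, went to 1.16. The uncalled TOA2 moved to 0.059 with TMM, 0.057 with DESeq2 size factors, 0.0058 with the loess offset on level and 0.0012 on GC, and ran from -0.077 to 0.038 without single libraries or times. With counts per site CEN3 had -0.13, HMRA1 -0.32, PMP3 -0.18 and RRP6 -0.10.

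The counts of 602 and 926 became 476 and 335 with the GC offset, 298 and 403 in the 1602 pairs of similar width, and 471 to 643 and 744 to 1018 without 1 library. With 1 time left out of both factors they were 438 to 546 and 694 to 871. The 34 and 87 at a doubling became 14 and 14 at similar widths, 29 and 24 with the GC offset, 53 TFIIB-rich with counts per site, 463 and 397 after background subtraction with limma, and 44 TFIIE-rich with the loess offset on level. TFIIB's share of calls was 39.4%, against 52.4% with TMM, 51.8% with DESeq2 size factors, 52.0% with the loess offset, 58.7% with the GC offset and 50.1% after background subtraction. The falling time terms numbered 3 with TMM, 1 with DESeq2 size factors and 2 at similar widths, 0 to 82 without a library or time, and the rising ones 0 to 20. The rho of 0.68 became 0.88 with counts per site, 0.76 at 20 min and 0.58 at 30 min alone, and Pearson's r was 0.80. The cause of these shifts was not tested.

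With time as a replicate block 643 pairs were TFIIB-rich and 1048 TFIIE-rich (33 and 93 at a doubling). Libraries of equal time deviated together at 10 and 25 min (correlations 0.60 and 0.35) but not at 20 and 30 min (-0.11 and -0.03), and not every library correlated best with its own time, so times were not treated as paired.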

Other observations

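The TFIIB-Myc library taken before galactose, which enters no comparison above, had a Spearman rho of 0.67 to 0.80 with the 4 early TFIIB-Myc libraries and of 0.76 to 0.78 with the 4 early TFIIE-Myc libraries across the 3310 pairs. The late TFIIE-Myc libraries had 51.0% to 63.0% of their counts in the pairs and 13.9% to 26.7% in the ribosomal DNA, where the late TFIIB-Myc libraries had 73.0% to 74.0% in the pairs and 3.42% to 5.41% in the ribosomal DNA. The TFIIB-HA library at 10 min had 40.1% of its counts in the ribosomal DNA.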
